A study of Mus musculus with 11 samples.

Results

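The 9 genes described here encode the 3 retinoid X receptors (Rxrg, Rxra and Rxrb), 5 receptors that pair with them (Rara, Rarg, Pparg, Vdr and Nr1h2) and the glucocorticoid receptor (Nr3c1), out of 57186 gene entries in the count tables. They were picked by symbol. Rxrg was picked because its counts differ between the 2 groups of lung cells, so its values there are given as a description without a test, and the other 8 were picked as its family, its partners and a further nuclear receptor of lymphocytes.

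Bulk RNA sequencing was done on sorted cells of untreated mice 14 days old, all of the genotype Cd3giCreRosa26stopZsGreen. In this fate-mapping design iCre recombinase is made under the control of Cd3g, a subunit gene of the T cell receptor complex, and removes a stop in front of the fluorescent protein ZsGreen, so that cells with a history of Cd3g expression stay green. The groups were thymic DN3 cells, an early CD4 and CD8 double-negative stage of T cell development (n = 3), lung group 2 innate lymphoid cells (ILC2) that were ZsGreen-positive (n = 3), and lung ILC2 that were ZsGreen-negative (n = 5). Whether DN3 were also sorted by ZsGreen is not stated. Every group carried the reporter alleles, so no group without them serves as a control. Separate animals are not stated for the replicates. The p-values therefore cover the differences among libraries as deposited, part of which may be technical.

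Nuclear receptors are transcription factors switched by small lipophilic ligands. Retinoid X receptors bind DNA as the common partner in pairs with retinoic acid receptors (RAR), peroxisome proliferator-activated receptors (PPAR), liver X receptors (LXR) and the vitamin D receptor, whereas the glucocorticoid receptor acts without them. In ILC2, retinoic acid and vitamin D are known to alter cytokine output and homing receptors, and Pparg is known to support lipid uptake and type 2 cytokine production.

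The promoters of Rxrg and Rxrb are shown because these 2 genes of one family differed in pattern. Rxrg differed between all groups, and Rxrb was the member that differed least between thymus and lung. Each line holds the 250 bases before and 50 after a transcript start from RefSeq (GRCm38.p6, plus strand, 5′ to 3′), and capitals mark core binding motifs of nuclear receptors on either strand. Rxrg has 2 annotated starts, at chr1:167598112-167598411 and chr1:167618015-167618314, and the first window of Rxrb lies at chr17:34031562-34031861.
Rxrg first start: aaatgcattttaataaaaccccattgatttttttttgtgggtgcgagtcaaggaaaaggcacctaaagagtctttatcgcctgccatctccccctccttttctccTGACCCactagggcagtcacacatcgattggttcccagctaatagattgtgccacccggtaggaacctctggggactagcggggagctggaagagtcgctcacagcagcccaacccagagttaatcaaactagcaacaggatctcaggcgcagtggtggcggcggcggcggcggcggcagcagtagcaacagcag
Rxrg second start: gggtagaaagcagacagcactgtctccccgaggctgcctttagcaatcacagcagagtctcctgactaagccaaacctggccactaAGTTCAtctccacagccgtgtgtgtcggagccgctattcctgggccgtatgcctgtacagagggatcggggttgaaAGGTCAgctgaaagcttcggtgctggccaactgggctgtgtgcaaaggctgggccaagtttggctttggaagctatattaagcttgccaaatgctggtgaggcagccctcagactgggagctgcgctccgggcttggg
Rxrb first start: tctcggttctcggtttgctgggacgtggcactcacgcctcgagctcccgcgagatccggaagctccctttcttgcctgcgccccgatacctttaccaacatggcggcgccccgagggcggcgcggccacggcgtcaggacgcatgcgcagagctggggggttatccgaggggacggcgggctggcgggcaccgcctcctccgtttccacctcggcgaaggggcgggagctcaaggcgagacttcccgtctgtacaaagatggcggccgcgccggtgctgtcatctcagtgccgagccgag
On both strands, the motif AGGTCA was searched, then its variants with other letters: the motif AGTTCA, the motif GGGTCA and the motif GGTTCA. The first Rxrg window held GGGTCA on the minus strand, the second held AGTTCA and AGGTCA on the plus strand, and the Rxrb window held none. These letters are common: AGGTCA stood in 16.3% of all 32851 promoter windows of the table, AGTTCA in 14% and GGGTCA in 13.7%. At least 1 of the 4 stood in 43.7% of all windows and in 9 of 17 windows of the 8 members matched in the table. No promoter was used for Nr3c1. Direct repeats of these motifs with 1, 2, 3, 4 or 5 bases between them were in none of the 17 windows, and each spacing was in at most 0.268% of all windows. The Rxrb window was 68.7% G and C with 37 CpG dinucleotides, the Rxrg windows 53.7% with 13 and 57% with 9, against medians of 52.7% and 7 over all windows.

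Total counts per library were 5951494 to 7745062 in DN3, 5762491 to 17627469 in ZsGreen-positive ILC2 and 4495260 to 14424313 in ZsGreen-negative ILC2. All 12 ILC2 markers had counts in every lung library, while Il1rl1, Areg, Il13 and Klrg1 were at 0 in DN3. The other 8 ILC2 markers had counts in every DN3 library. By edgeR, DN3 had 11 of the 12 lower and 1 higher against each lung group. All 12 DN3 markers had counts in every DN3 library, and Rag2 and Ptcra were at 0 in both lung groups. In each lung group 8 of the 12 DN3 markers had counts in every library. Between the lung groups edgeR called 3 of 12 ILC2 markers higher and 1 lower in ZsGreen-positive ILC2. Of 8 DN3 markers tested there, 2 were higher and 1 lower. Cd3g itself averaged 151 CPM (counts scaled to library size) in ZsGreen-positive ILC2 and 35.2 CPM in ZsGreen-negative ILC2. Markers of other lung cells were present in all lung libraries: the 28 structural markers (epithelium, endothelium, fibroblasts) summed to 192 to 226 CPM in DN3, 1097 to 2713 CPM in ZsGreen-positive ILC2 and 437 to 1228 CPM in ZsGreen-negative ILC2. Of the 23 tested between the lung groups, 3 were higher in ZsGreen-positive ILC2 (Cldn18, Cldn5 and Pdgfrb) and 0 lower. The 20 macrophage and dendritic cell markers summed to 17.8 to 19.6 CPM in DN3, 154 to 462 CPM in ZsGreen-positive ILC2 and 81.5 to 339 CPM in ZsGreen-negative ILC2. In DN3, 9 of the structural markers were at 0, among them the surfactant genes Sftpa1 and Sftpd. Most of the structural sum of DN3 came from Pecam1, Pdgfrb and Epcam, with means of 99.9, 62.2 and 35.8 CPM there. These were the structural markers that edgeR called higher in DN3 than in each lung group. The structural sum of DN3 therefore need not stand for structural cells. Between the lung groups 0 of 12 macrophage and dendritic cell markers tested were called by edgeR (2 at an unadjusted p under 0.05), 1 of 2 mast cell and basophil markers was lower (Cpa3), and 0 of 2 neutrophil markers were called (2 unadjusted). Of 5 B cell markers tested there, 1 was higher in ZsGreen-positive ILC2 and 0 lower (4 unadjusted). The 7 B cell markers summed to 99.96 to 168 CPM in ZsGreen-positive ILC2 and 94.6 to 114 CPM in ZsGreen-negative ILC2. No lung library shares the batch date of the DN3 libraries. Their tissue therefore cannot be told apart from their batch, whereas both lung groups are found in a 2024 and a 2025 batch.

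Rxrg (ENSMUSG00000015843) was nearly silent in DN3, intermediate in ZsGreen-positive ILC2 and highest in ZsGreen-negative ILC2. In DN3 it had 0.281, 0.107 and 1.05 CPM, from 2, 1 and 9 counts. In ZsGreen-positive ILC2 it had 23.4, 28.0 and 28.0 CPM. In ZsGreen-negative ILC2 it had 59.5, 60.3, 65.6, 63.6 and 66.8 CPM. The 3 groups did not overlap, and the lowest ZsGreen-negative library was above every ZsGreen-positive one. The means were 0.479 ± 0.501 CPM in DN3, 26.5 ± 2.65 CPM in ZsGreen-positive ILC2 and 63.2 ± 3.20 CPM in ZsGreen-negative ILC2 (SD, n = 3, 3 and 5). In bulk samples, fewer cells that transcribe a gene and less RNA per cell cannot be told apart.

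Between the lung groups, Rxrg in ZsGreen-positive ILC2 was at 0.415 times its level in ZsGreen-negative ILC2, a log2 difference of −1.27 ± 0.10 (SE). The difference was −1.28 within the 2024 batch (n = 2 and 4) and −1.26 within the 2025 batch (n = 1 and 1). With the structural marker score as a term the log2 difference was −1.33, and with the macrophage marker score it was −1.34.

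**Figure D1:**
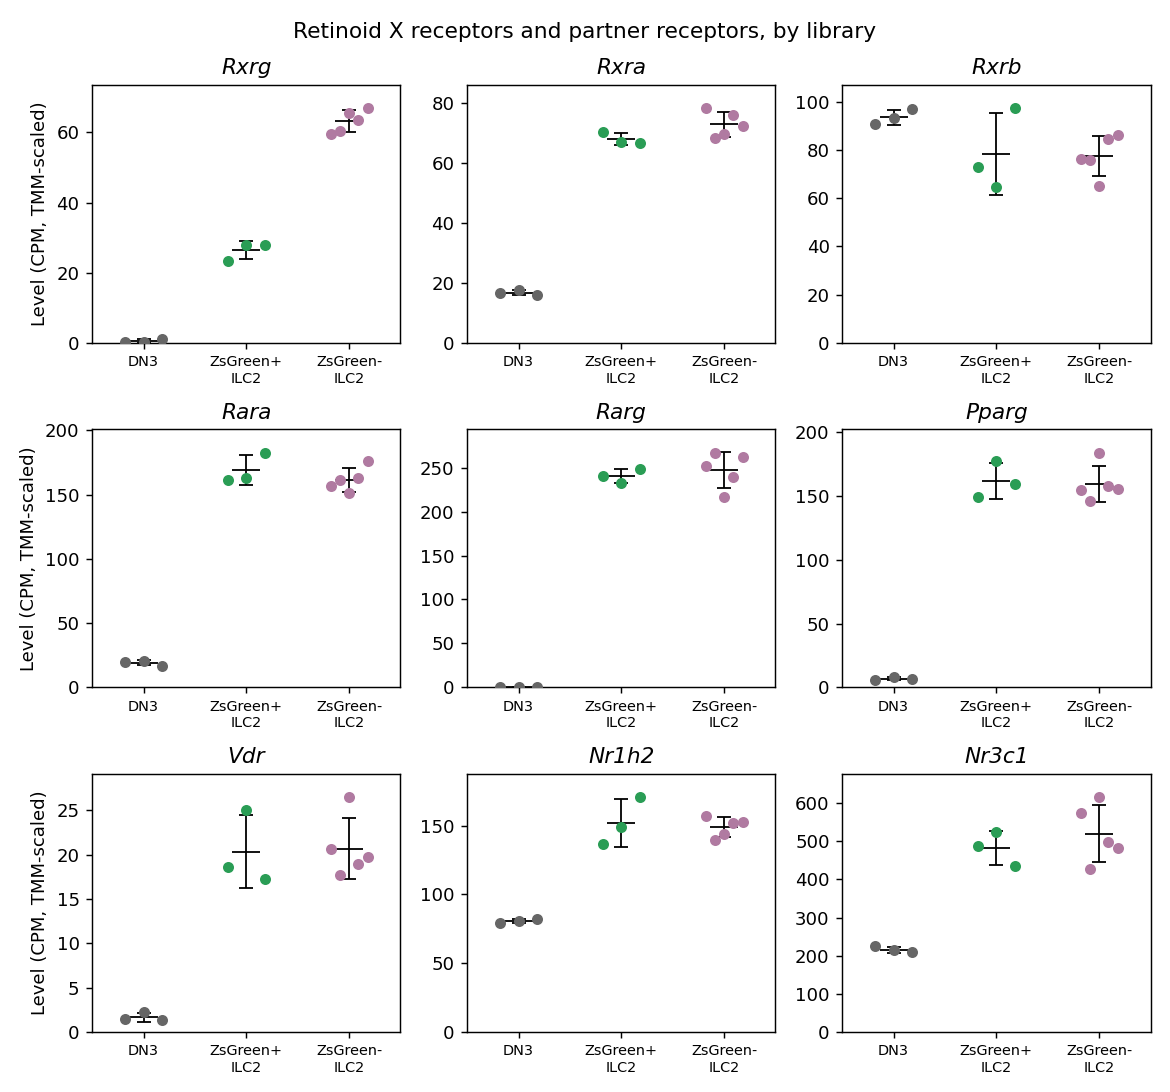
Levels of the 9 receptor genes in CPM (linear axes from 0) in each library of DN3, ZsGreen-positive (ZsGreen+) and ZsGreen-negative (ZsGreen-) lung ILC2. Points are libraries, and horizontal bars with whiskers are the mean ± SD (n = 3, 3 and 5). Rxrg alone of the 9 separates the lung groups, and Rxrb alone is not lowest in DN3.

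Neither of the other retinoid X receptor genes passed the test between the lung groups. Rxra (ENSMUSG00000015846), the widely expressed isotype, had 16.4, 17.7 and 15.9 CPM in DN3. It had 70.2, 66.8 and 66.6 CPM in ZsGreen-positive ILC2, and 78.1, 68.2, 69.7, 76.0 and 72.3 CPM in ZsGreen-negative ILC2. The lung groups overlapped and DN3 lay below both. Between the lung groups the log2 difference was −0.10 (95% interval −0.28 to 0.09, adjusted p = 0.687 by edgeR's quasi-likelihood test). Rxra was lower in DN3 by edgeR, with a log2 difference of −2.02 ± 0.10 (SE) against ZsGreen-positive ILC2 (adjusted p = 8.25e-14) and −2.12 ± 0.10 against ZsGreen-negative ILC2 (adjusted p = 9.11e-15).

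Rxrb (ENSMUSG00000039656), the other broadly expressed isotype, differed least between thymus and lung. It had 90.6, 93.3 and 96.7 CPM in DN3. It had 72.8, 64.4 and 97.2 CPM in ZsGreen-positive ILC2, and 76.2, 75.8, 64.8, 84.4 and 86.0 CPM in ZsGreen-negative ILC2. ZsGreen-positive library 3 lay above all DN3 libraries, while all 5 ZsGreen-negative libraries lay below them. By edgeR the log2 difference of DN3 was 0.24 ± 0.13 (SE) against ZsGreen-positive ILC2 (adjusted p = 0.0832) and 0.27 ± 0.11 against ZsGreen-negative ILC2 (adjusted p = 0.0366). Both calls were unstable. Without ZsGreen-positive library 3 the first was 0.47 with an edgeR adjusted p of 0.000817. The second passed no longer without any 1 of DN3 libraries 1, 2 or 3 or ZsGreen-negative libraries 1, 2 or 3, with edgeR adjusted p from 0.056 to 0.105. With upper-quartile scaling the all-gene median shifted by 0.105 on the log2 scale against ZsGreen-negative ILC2 and by 0.0962 against ZsGreen-positive ILC2, and gave Rxrb differences of 0.37 and 0.34 there. Between the lung groups the difference was −0.04 (95% interval −0.25 to 0.17, edgeR adjusted p = 0.924).

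The make-up of retinoid X receptor transcripts differed between the groups. To compare the genes, CPM were divided by the joint length of all annotated exons in kb, which was 2.297 for Rxrg, 5.462 for Rxra and 3.973 for Rxrb. The length of the transcripts in these cells may differ from it. Summed over the 3 genes, the level was 26.8 ± 0.893 CPM per kb in DN3, 43.6 ± 4.54 CPM per kb in ZsGreen-positive ILC2 and 60.3 ± 2.91 CPM per kb in ZsGreen-negative ILC2 (SD). Rxrg made up 0.764 ± 0.778% of that sum in DN3, 26.5 ± 3.00% in ZsGreen-positive ILC2 and 45.6 ± 2.33% in ZsGreen-negative ILC2. Rxrb made up 87.8 ± 0.0955%, 44.8 ± 5.10% and 32.3 ± 2.29% in the same order of groups. Per kb, Rxrb was the leading isotype in every DN3 and every ZsGreen-positive library, and Rxrg in every ZsGreen-negative library. The lead of Rxrg rests on the division by length. In CPM it averaged 63.2 in ZsGreen-negative ILC2, below Rxra with 72.8 and Rxrb with 77.4. The ratio of Rxrg to Rxrb per kb was 0.556, 0.751 and 0.498 in the ZsGreen-positive libraries and 1.35, 1.38, 1.75, 1.30 and 1.34 in the ZsGreen-negative libraries. These shares follow from the Rxrg levels that chose the gene and are a description.

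**Figure D2:**
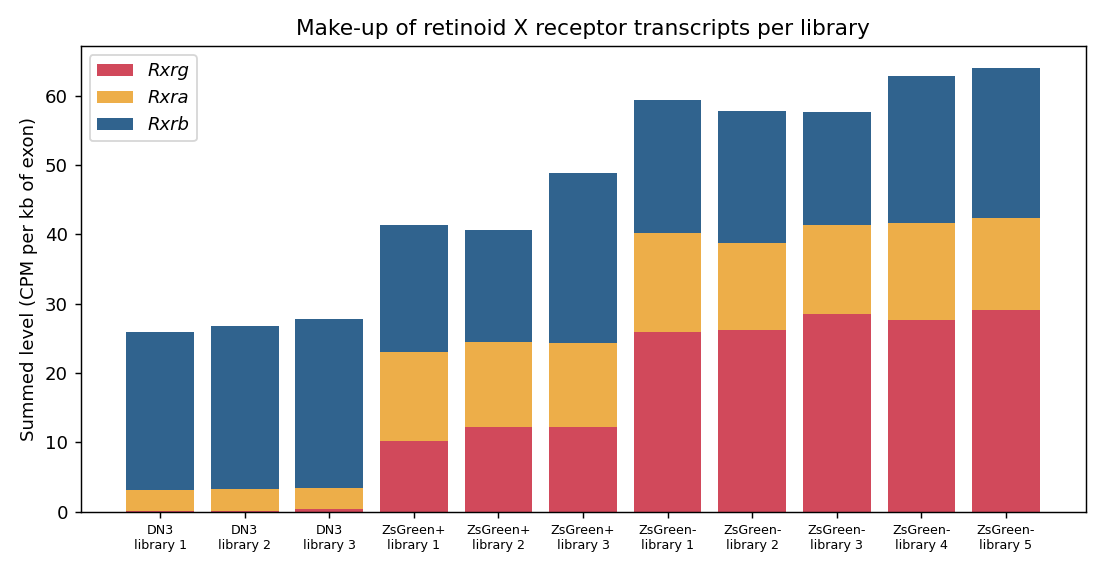
Summed level of the 3 retinoid X receptor genes per library, in CPM per kb of exon (linear axis from 0), split into Rxrg, Rxra and Rxrb. The Rxrg part is scarcely visible in DN3 and largest in the 5 ZsGreen-negative libraries, where the sums reach 57.6 to 64.0, while the Rxra and Rxrb parts of both lung groups are alike in height.

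Among the retinoic acid receptors, Rarg (ENSMUSG00000001288) was the one of the 9 genes that differed most between thymus and lung. It had 0.281, 0.429 and 0 CPM in DN3, from 2, 4 and 0 counts. It had 240.1, 233 and 249 CPM in ZsGreen-positive ILC2, and 252, 267, 217, 239 and 263 CPM in ZsGreen-negative ILC2. The lung groups overlapped and DN3 lay far below both. In DN3 Rarg was lower by edgeR, with a log2 difference of −9.88 ± 0.22 (SE) against ZsGreen-positive ILC2 (adjusted p = 3.9e-20) and −9.92 ± 0.21 against ZsGreen-negative ILC2 (adjusted p = 2.01e-20). With so few counts the size rests on single reads: without DN3 library 2, which had 4 of the 6 counts, these differences were −10.71 and −10.76. Without DN3 library 3 they were −9.30 and −9.35. Rarg passed the filter on low counts only through the lung libraries, so no other direction could have been called. Between the lung groups the difference was −0.05 (95% interval −0.22 to 0.12, edgeR adjusted p = 0.848).

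Rara (ENSMUSG00000037992), the retinoic acid receptor found in most leukocytes, had 19.95, 20.5 and 16.8 CPM in DN3. It had 162, 163 and 183 CPM in ZsGreen-positive ILC2, and 157, 162, 151, 163 and 176 CPM in ZsGreen-negative ILC2. DN3 again lay below both lung groups, which overlapped. The edgeR log2 difference of DN3 was −3.15 ± 0.11 (SE) against ZsGreen-positive ILC2 (adjusted p = 3.88e-17) and −3.08 ± 0.10 against ZsGreen-negative ILC2 (adjusted p = 1.88e-17). The ZsGreen-positive and ZsGreen-negative groups differed by 0.05 (95% interval −0.11 to 0.21, edgeR adjusted p = 0.836). Of the summed Rara and Rarg level per kb, Rarg made up 1.42, 2.10 and 0% in DN3, 60.3, 59.3 and 58.3% in ZsGreen-positive ILC2, and 62.3, 62.9, 59.6, 60.1 and 60.5% in ZsGreen-negative ILC2. The remaining retinoic acid receptor gene, Rarb, had 0 counts in DN3, 12 in ZsGreen-positive ILC2 and 4 in ZsGreen-negative ILC2, too few to be tested.

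Pparg (ENSMUSG00000000440), the PPAR isotype of adipocytes and alveolar macrophages, had 5.48, 8.25 and 6.87 CPM in DN3. It had 149, 177 and 159.5 CPM in ZsGreen-positive ILC2, and 155, 146, 184, 158 and 156 CPM in ZsGreen-negative ILC2. DN3 lay below both lung groups, with edgeR log2 differences of −4.54 ± 0.14 (SE, adjusted p = 5.67e-18) against ZsGreen-positive ILC2 and −4.52 ± 0.13 (adjusted p = 2.53e-18) against ZsGreen-negative ILC2. Alveolar macrophages also transcribe Pparg, and their marker Chil3, named after its values were seen, was at 0 in DN3 and averaged 79.2 ± 89.4 CPM in ZsGreen-positive ILC2 and 65.9 ± 64.2 CPM in ZsGreen-negative ILC2. The SD of Pparg was 14.2 CPM in ZsGreen-positive ILC2 and 14.3 CPM in ZsGreen-negative ILC2. The part of macrophage RNA in the Pparg level was not tested. Pparg differed between the lung groups by 0.03 (95% interval −0.16 to 0.22, edgeR adjusted p = 0.929).

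Vdr (ENSMUSG00000022479), the vitamin D receptor, was the lowest member in the lung per kb of exon. It ranged from 1.28 to 2.25 CPM in DN3, from 17.3 to 25.04 CPM in ZsGreen-positive ILC2 and from 17.7 to 26.5 CPM in ZsGreen-negative ILC2. In DN3 it was lower by edgeR, by −3.57 ± 0.24 (log2, SE, adjusted p = 1.19e-11) against ZsGreen-positive ILC2 and −3.61 ± 0.23 (adjusted p = 3.7e-12) against ZsGreen-negative ILC2. Its interval between the lung groups was the widest of the 9, from −0.34 to 0.31 around −0.01 (edgeR adjusted p = 0.985). Nr1h2 (ENSMUSG00000060601), the broadly expressed LXR, ranged from 78.8 to 82.0 CPM in DN3, from 136 to 171 CPM in ZsGreen-positive ILC2 and from 139 to 157 CPM in ZsGreen-negative ILC2. DN3 was lower by −0.92 ± 0.09 (log2, SE, edgeR adjusted p = 9.34e-09) against ZsGreen-positive ILC2 and −0.88 ± 0.09 (edgeR adjusted p = 3.94e-09) against ZsGreen-negative ILC2. The lung groups differed by 0.01 (95% interval −0.16 to 0.19, edgeR adjusted p = 0.965).

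Nr3c1 (ENSMUSG00000024431), the glucocorticoid receptor, ranged from 208 to 224 CPM in DN3, from 434 to 525 CPM in ZsGreen-positive ILC2 and from 428 to 616 CPM in ZsGreen-negative ILC2. DN3 was lower by −1.16 ± 0.12 (log2, SE, edgeR adjusted p = 8.56e-09) against ZsGreen-positive ILC2 and by −1.27 ± 0.11 (edgeR adjusted p = 5.04e-10) against ZsGreen-negative ILC2. The lung groups differed by −0.08 (95% interval −0.31 to 0.14, edgeR adjusted p = 0.797).

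Between ZsGreen-positive and ZsGreen-negative ILC2, edgeR called 0 of the 8 members other than Rxrg, against 4.52% of the 13771 genes tested (2.35% higher and 2.18% lower). None of the 8 had an unadjusted p under 0.05, and DESeq2 and limma voom also called 0. Their groups overlapped for all 8, whereas 10.2% of all genes had groups that did not overlap (5.17% higher and 5.01% lower), and the median log2 difference of the 8 was −0.02, against −0.00 for all genes tested. The intervals bound each difference to at most 0.34 in size on the log2 scale, which does not show that the levels are equal. DN3 was lower than ZsGreen-positive ILC2 for 8 of 9 members and higher for 0 by edgeR, where 75.1% of 15132 genes were called (34.8% higher and 40.3% lower). DESeq2 and limma voom also called 0 higher, and the unadjusted edgeR p of Rxrb was 0.0648. DN3 was lower than ZsGreen-negative ILC2 for 8 and higher for 1, where 76.7% were called (35.5% higher and 41.2% lower). The libraries of DN3 and ZsGreen-positive ILC2 did not overlap for the same 8 lower members, as for 78.1% of all genes (36.8% higher and 41.3% lower). Those of DN3 and ZsGreen-negative ILC2 did not overlap for all 9, as for 73.9% of all genes (34.7% higher and 39.2% lower). The median of the 9 members was −3.15 against ZsGreen-positive ILC2 and −3.08 against ZsGreen-negative ILC2, set beside −0.08 and −0.10 for all genes. Both comparisons use the same DN3 libraries. Rxrg in DN3 was lower by −5.75 ± 0.27 (SE, edgeR adjusted p = 1.78e-14) and −7.00 ± 0.25 (edgeR adjusted p = 6.82e-17). Without DN3 library 3, which held 9 of its 12 counts, these were −7.06 and −8.31. With 12 and 6 counts in DN3, Rxrg and Rarg passed the filter on low counts only through the lung libraries. They could thus only be called lower in DN3, and their p-values there add no support.

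**Figure D3:**
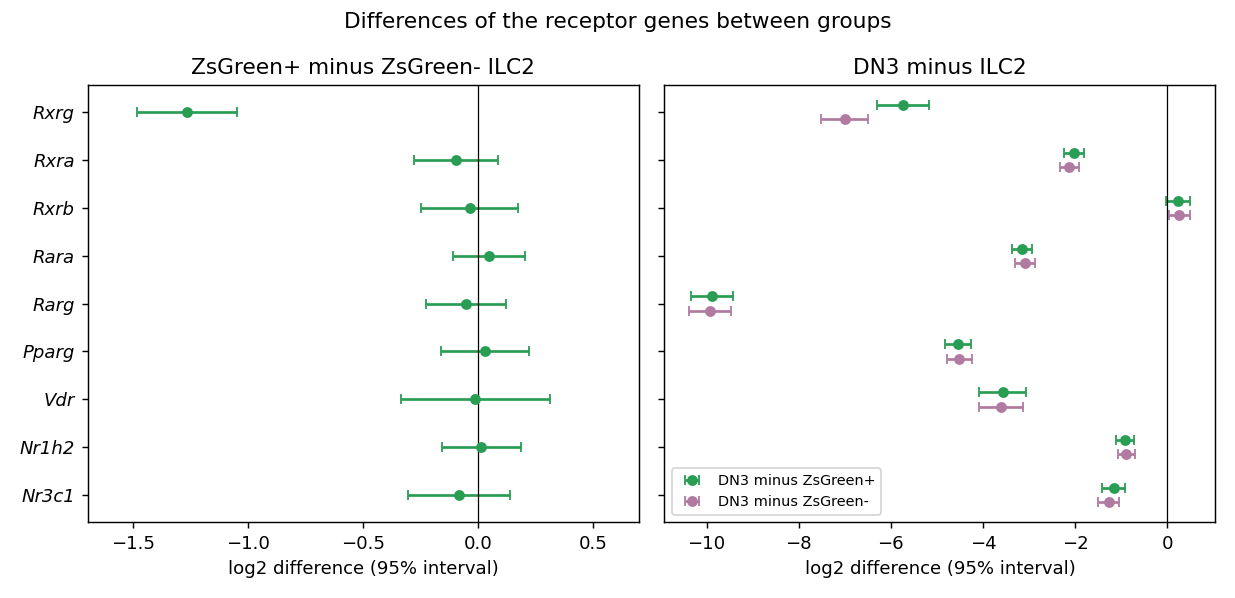
Log2 differences of the 9 receptor genes with 95% intervals from edgeR. The left panel shows ZsGreen-positive minus ZsGreen-negative ILC2, where the intervals of the 8 genes other than Rxrg include 0, and the value of Rxrg is a description. The right panel shows DN3 minus each lung group, where all genes but Rxrb lie below 0 and the scale is wider.

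By level per kb the order of the 9 receptors differed between thymus and lung. In DN3 Nr3c1 led with 28.0 ± 1.03 CPM per kb, followed by Nr1h2 with 24.0 ± 0.475 and Rxrb with 23.5 ± 0.772, whose libraries overlapped. All others were at 4.37 CPM per kb or less, and at the low end Vdr, Rxrg and Rarg overlapped. In ZsGreen-positive ILC2 the order was Nr3c1 with 62.8 ± 5.95, Rarg with 56.4 ± 1.88, Pparg with 54.8 ± 4.82, Nr1h2 with 45.3 ± 5.15 and Rara with 38.8 ± 2.66 CPM per kb. Each of these overlapped with the next. Below them came Rxrb with 19.7 ± 4.28, Rxra with 12.4 ± 0.370, Rxrg with 11.5 ± 1.15 and Vdr with 3.60 ± 0.732 CPM per kb, where neighbours did not overlap. In ZsGreen-negative ILC2 the first 5 stood in the same order, and Rxrg with 27.5 ± 1.39 CPM per kb came next, above Rxrb with 19.5 ± 2.12 and Rxra with 13.3 ± 0.762. Rxrg thus ranked 8 of 9 in ZsGreen-positive ILC2 and 6 of 9 in ZsGreen-negative ILC2.

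In the 9 lists of genes around the receptors, 6 of 92 genes tested passed the test between the lung groups (4 higher and 2 lower), which is 6.52%, beside 4.52% of all genes. Among the higher ones, S100g passed the filter on low counts only through ZsGreen-positive libraries and could not have been called lower. Many had too few counts to be tested: 4 of 11 other RXR partners, 12 of 28 further nuclear receptors and 12 of 29 genes of retinoid metabolism and transport passed the filter on low counts. Of the other receptors that pair with RXR, 0 of 4 tested were called by edgeR, and 0 had an unadjusted p under 0.05. The Nr4a1 receptor, induced by antigen and stress signals, averaged 5520.4 ± 572 CPM in ZsGreen-positive ILC2 and 6369 ± 888 CPM in ZsGreen-negative ILC2. Ppard, the broadly expressed PPAR, averaged 25.2 ± 3.44 and 29.5 ± 3.20 CPM in the same order. Of the further nuclear receptors, 0 of 12 were called (2 at an unadjusted p under 0.05), and of 18 coregulators 0 were called (2 unadjusted). Retinoid metabolism also gave 0 of 12 (4 unadjusted). Retsat, which saturates retinol, averaged 5.38 ± 1.28 CPM in ZsGreen-positive ILC2 and 9.05 ± 2.17 CPM in ZsGreen-negative ILC2 (edgeR adjusted p = 0.075). The retinaldehyde dehydrogenase Aldh1a1 averaged 15.1 ± 12.7 CPM in ZsGreen-positive ILC2 and 4.597 ± 3.09 CPM in ZsGreen-negative ILC2 (edgeR adjusted p = 0.235).

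Target gene lists gave single calls. Mylip, an LXR target that marks the LDL receptor for breakdown, fell to 69.4 ± 5.20 CPM in ZsGreen-positive ILC2, against 127 ± 8.68 CPM in ZsGreen-negative ILC2 (log2 −0.85 ± 0.09 SE, edgeR adjusted p = 1.2e-05). Pltp, a phospholipid transfer protein and LXR target, rose to 8.80 ± 2.64 CPM, against 3.43 ± 1.11 CPM (log2 1.41 ± 0.28, edgeR adjusted p = 0.00535). These were 1 higher and 1 lower of 12 LXR targets tested, with a list median of −0.07. Among 14 PPAR targets 1 was called, Plin2, a coat protein of lipid droplets, which fell to 153 ± 23.4 CPM in ZsGreen-positive ILC2, against 225 ± 54.99 CPM in ZsGreen-negative ILC2 (log2 −0.47 ± 0.12, edgeR adjusted p = 0.0365). The PPAR list had a median of 0.05. Of 7 retinoic acid responsive genes 1 was called (median 0.13), Ccr9, a chemokine receptor for gut homing, at 49.4 ± 27.4 CPM in ZsGreen-positive ILC2 and 30.1 ± 9.76 CPM in ZsGreen-negative ILC2 (log2 0.74 ± 0.18, edgeR adjusted p = 0.0353). The integrin chain Itgb7, of the same list, averaged 1199 ± 187 and 1014 ± 113 CPM (edgeR adjusted p = 0.324).

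Of 12 glucocorticoid receptor targets 1 was called (median −0.09), Il1r2, a decoy receptor for interleukin-1, which rose to 119.5 ± 25.3 CPM in ZsGreen-positive ILC2, against 61.7 ± 16.1 CPM in ZsGreen-negative ILC2 (log2 1.03 ± 0.14, edgeR adjusted p = 0.000637). Of 4 vitamin D receptor targets 1 was called (median 0.35), the calcium-binding S100g, at 2.33 ± 0.606 CPM in ZsGreen-positive ILC2 and 0.579 ± 0.379 CPM in ZsGreen-negative ILC2 (log2 1.94 ± 0.53, edgeR adjusted p = 0.0416). S100g had 21 counts over the ZsGreen-negative libraries and passed the filter on low counts only through the ZsGreen-positive ones. It could thus only be called higher, and its p-value adds no support. Structural markers moved with these comparisons. With their score as a term, Mylip remained called (log2 −0.95, edgeR adjusted p = 0.00125), and the other 5 passed no longer. For 3 of these the size stayed close to that without the score: Il1r2 was at 1.03 (edgeR adjusted p = 0.0834), Ccr9 at 0.77 (0.48) and Plin2 at −0.41 (0.653). Pltp was at 0.85 (edgeR adjusted p = 0.721) and S100g at 1.34 (0.896), both smaller than without it. With the macrophage score as a term, Ccr9 was at 0.65 (edgeR adjusted p = 0.0785) and S100g at 1.94 (0.114), and neither passed. A call lost in this way does not show that the difference went away, and the part of other lung cells in these differences was not tested. With all 11 libraries in the lung fit, the edgeR adjusted p was 0.484 for Ccr9, 0.125 for Plin2 and 0.0567 for Il1r2. Without the batch term it was 0.606 for Ccr9 and 0.178 for Plin2, and in the 2024 batch alone 0.178 for S100g. Single libraries also decided some calls. Plin2 was lost without any 1 of ZsGreen-positive libraries 1 or 2 or ZsGreen-negative libraries 2, 3 or 5 (edgeR adjusted p 0.0515 to 0.191), and Ccr9 without ZsGreen-positive libraries 1 or 2 or ZsGreen-negative libraries 1 or 4 (0.0676 to 0.156). S100g was lost without any ZsGreen-positive library or ZsGreen-negative libraries 2, 3 or 5 (0.0524 to 0.218), and Pltp without ZsGreen-positive library 2 (0.0744).

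**Figure D4:**
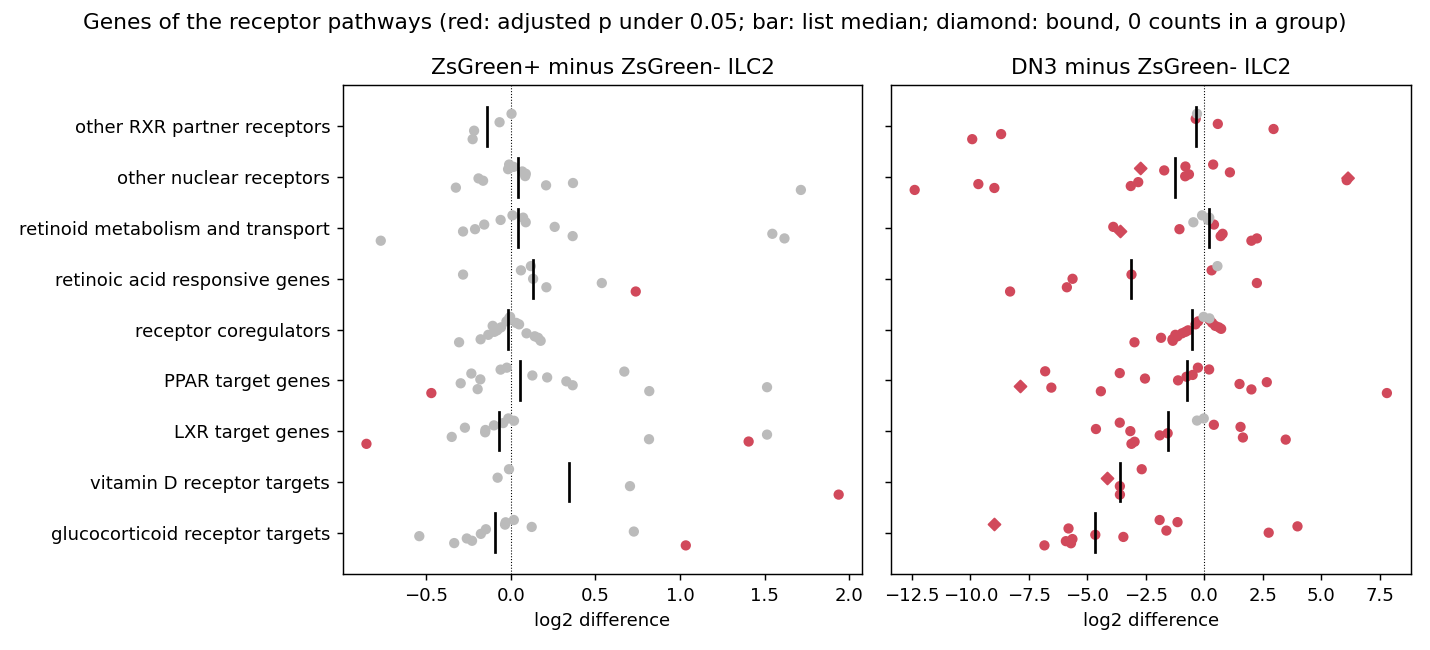
Log2 differences of the tested genes in 9 lists around the receptors, for ZsGreen-positive minus ZsGreen-negative ILC2 (left) and DN3 minus ZsGreen-negative ILC2 (right, wider scale). Each point is a gene, red where the edgeR adjusted p is under 0.05. Diamonds are genes with 0 counts in a group, drawn at the bound that 3 counts over that group give, and bars are list medians. The left panel holds 6 red points, while most points of the right panel are red.

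Against the lung cells, DN3 differed in most genes of these lists, as in most genes tested. Of 98 genes tested in the 9 lists, 26 were higher and 60 lower in DN3 against ZsGreen-positive ILC2, which is 87.8%, beside 75.1% of all genes (34.8% higher and 40.3% lower). Set against ZsGreen-negative ILC2, DN3 had 27 of them higher and 62 lower, which is 90.8%, beside 76.7% (35.5% higher and 41.2% lower). Some of the listed genes passed the filter on low counts only through DN3 or only through the lung libraries. Such genes could not have been called in the other direction. The median log2 difference of all genes was −0.08 in the first comparison and −0.10 in the second. Of 6 other RXR partners tested, 2 were higher and 2 lower in DN3 against ZsGreen-positive ILC2, and 2 higher and 3 lower against ZsGreen-negative ILC2. The thyroid hormone receptors were the higher ones: Thra averaged 59.2 ± 2.44 CPM in DN3, 37.998 ± 2.47 CPM in ZsGreen-positive ILC2 and 39.4 ± 4.69 CPM in ZsGreen-negative ILC2. Thrb averaged 6.91 CPM in DN3, 0.542 CPM in ZsGreen-positive ILC2 and 0.808 CPM in ZsGreen-negative ILC2. Nr4a1 fell to 15.5 ± 2.27 CPM in DN3 and Nr4a2 to 1.91 ± 0.112 CPM, against means of 5520.4 and 1859 CPM in ZsGreen-positive ILC2. Among 14 further nuclear receptors, 3 were higher and 10 lower against ZsGreen-positive ILC2, and 4 higher and 10 lower against ZsGreen-negative ILC2. Rora, which ILC2 need to develop, averaged 1.89 ± 0.622 CPM in DN3, 1290.4 ± 239 CPM in ZsGreen-positive ILC2 and 1503 ± 264 CPM in ZsGreen-negative ILC2.

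Of the retinoid metabolism genes, 6 were higher and 3 lower in DN3 of 12 tested against ZsGreen-positive ILC2, and 5 higher and 3 lower against ZsGreen-negative ILC2. The list medians were 0.50 and 0.19. Dhrs3, a retinaldehyde reductase, averaged 36.7 ± 2.16 CPM in DN3, 6.22 ± 1.08 CPM in ZsGreen-positive ILC2 and 7.85 ± 1.21 CPM in ZsGreen-negative ILC2. Fabp5, a lipid chaperone that carries retinoic acid, averaged 64.8 ± 4.81, 20.1 ± 1.61 and 16.3 ± 3.07 CPM in the same order. Both rose in DN3 against each lung group by edgeR, with adjusted p of at most 4.72e-10. Of 7 retinoic acid responsive genes, 1 was higher and 4 lower in DN3 against ZsGreen-positive ILC2, and 2 higher and 4 lower against ZsGreen-negative ILC2 (medians −3.25 and −3.11). Itgb7 averaged 3.21 ± 0.923 CPM in DN3, 1199 CPM in ZsGreen-positive ILC2 and 1014 CPM in ZsGreen-negative ILC2, and Cd38 had 9 counts in DN3. Dhrs3 belongs to both lists and was the gene of the second that rose in both comparisons.

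Coregulators were 5 higher and 11 lower of 18 tested in DN3 against each lung group, with medians of −0.51 and −0.53, beside −0.08 and −0.10 for all genes. Ncoa1, a coactivator of the p160 family, averaged 16.9 ± 0.979 CPM in DN3, 117 ± 10.2 CPM in ZsGreen-positive ILC2 and 134 ± 10.1 CPM in ZsGreen-negative ILC2. The corepressor Ncor1 averaged 319.8 ± 12.7, 776 ± 95.1 and 706 ± 72.6 CPM in the same order. PPAR targets were 5 higher and 9 lower of 15 in DN3 against ZsGreen-positive ILC2 and 5 higher and 10 lower against ZsGreen-negative ILC2 (medians −0.57 and −0.76). Cd36, a fatty acid importer, had 0 counts in DN3 and averaged 32.1 ± 3.53 CPM in ZsGreen-positive ILC2 and 27.8 ± 7.28 CPM in ZsGreen-negative ILC2, at least 268-fold and 232-fold lower in DN3 against a floor of 3 counts over the group. Dgat1, an enzyme of triglyceride synthesis, averaged 17.3 ± 0.987 CPM in DN3, 1312 ± 219.8 CPM in ZsGreen-positive ILC2 and 1603 ± 408 CPM in ZsGreen-negative ILC2.

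LXR targets were 4 higher and 7 lower of 13 in DN3 against each lung group (medians −1.44 and −1.57). The higher ones were Scd2, Fasn, Srebf1 and Apoe, the last 2 named after their values were seen, and the first 3 act in fatty acid synthesis. Scd2, a fatty acid desaturase, averaged 759 ± 41.1 CPM in DN3, 52.4 ± 10.6 CPM in ZsGreen-positive ILC2 and 68.2 ± 8.81 CPM in ZsGreen-negative ILC2. Mylip averaged 14.7 ± 1.34 CPM in DN3, below both lung groups. All 4 vitamin D receptor targets tested were lower in DN3 than in each lung group (medians −4.09 and −3.61, and −4.05 for the first with Cd14, at 0 counts in DN3, at its bound), and the list includes Vdr itself. With 0 and 2 counts in DN3, Cd14 and S100g passed the filter on low counts only through the lung libraries. Both could thus only be called lower in DN3, and their calls add no support. Cdkn1a, an inhibitor of the cell cycle, averaged 39.9 ± 1.85 CPM in DN3, 462 ± 40.6 CPM in ZsGreen-positive ILC2 and 487 ± 31.8 CPM in ZsGreen-negative ILC2. Glucocorticoid receptor targets were 2 higher and 11 lower of 13 in DN3 against each lung group (medians −4.67 and −4.66). Nfkbia, the inhibitor of NF-kB, averaged 20.3 ± 1.67 CPM in DN3, 2119.7 ± 226 CPM in ZsGreen-positive ILC2 and 2308 ± 154 CPM in ZsGreen-negative ILC2, and Dusp1, a phosphatase of MAP kinases, 13.2 ± 1.11, 666 ± 83.5 and 797 ± 81.2 CPM in the same order. The 2 higher ones, also named after their values were seen, were Fkbp5, a cochaperone of the receptor, and Cd163, a scavenger receptor. Fkbp5 averaged 979 ± 30.9 CPM in DN3, 159 ± 5.53 CPM in ZsGreen-positive ILC2 and 145 ± 30.2 CPM in ZsGreen-negative ILC2. Many of these targets answer to other signals as well.

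Genes with a pattern like that of Rxrg were sought by Pearson correlation of log2(CPM + 1), among genes with a mean of at least 5 CPM. The libraries of each group share their sort and the groups differ in level, so a high value mostly says that a gene follows the groups. Over the 8 lung libraries and 9666 genes, the 8 most like Rxrg were Hspa12a (r = 0.987), Rcc2, Hes1, Zc3h12c, Lrrc52, Rnf144b, Serpinb2 and Basp1 (r = 0.9749). All were lower in ZsGreen-positive ILC2. Hspa12a, of the heat shock protein family, averaged 2.91 ± 0.702 CPM in ZsGreen-positive ILC2 and 8.02 ± 0.673 CPM in ZsGreen-negative ILC2. Hes1, a repressor downstream of Notch, averaged 89.2 ± 10.1 CPM in ZsGreen-positive ILC2 and 155 ± 7.61 CPM in ZsGreen-negative ILC2. The choice depended on single libraries, chosen as an alternative after the data were seen: without ZsGreen-positive library 1 only 1 of the 8 stayed in the list, and without ZsGreen-negative library 4 only 3.

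Over all 11 libraries and 9879 genes the 8 most like Rxrg included Plaur (r = 0.995), Basp1, Stxbp6, Bmp2, Mylip and Lats2. Like Rxrg, each of these was lowest in DN3 and highest in ZsGreen-negative ILC2 on average. Basp1, a membrane-bound signalling protein, averaged 20.9 ± 1.12 CPM in DN3, 115 ± 8.47 CPM in ZsGreen-positive ILC2 and 216 ± 24.7 CPM in ZsGreen-negative ILC2. Bmp2, a secreted growth factor, had 0 counts in DN3 and averaged 38.4 ± 3.95 CPM in ZsGreen-positive ILC2 and 92.4 ± 11.5 CPM in ZsGreen-negative ILC2. Stxbp6, a syntaxin-binding protein, averaged 0.317 ± 0.0343, 20.5 ± 2.44 and 57.9 ± 3.15 CPM in the order of DN3, ZsGreen-positive and ZsGreen-negative ILC2. Without DN3 library 3 or without ZsGreen-positive library 1, 4 of the 8 stayed in the list. None of the other receptors was on either list: across the lung libraries Rxra had r = 0.56 with Rxrg, and the other 7 lay between −0.32 and 0.28.

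Lrrc52, 1 of the 8 genes most like Rxrg in the lung, is also the protein-coding gene next to Rxrg in the RefSeq gene table, which encodes a leucine-rich repeat protein. This was looked at after its values were seen. It had 0 counts in all 3 DN3 libraries, 30, 29 and 83 counts in the ZsGreen-positive libraries and 56, 64, 54, 86 and 159 counts in the ZsGreen-negative libraries. It averaged 4.87 ± 0.506 CPM in ZsGreen-positive ILC2 and 12.01 ± 1.74 CPM in ZsGreen-negative ILC2, a log2 difference of −1.29 ± 0.21 (SE), beside −1.27 for Rxrg. In DN3 it was at least 40.6-fold lower than in ZsGreen-positive ILC2 and at least 100.3-fold lower than in ZsGreen-negative ILC2, against the floor of 3 counts over the group. The lung groups of Lrrc52 did not overlap, as for 10.2% of all genes (5.17% higher and 5.01% lower). Lrrc52 came up among 9666 genes for its likeness to Rxrg over the same lung libraries. Its lung difference and lack of overlap follow from that choice and are a description. Mgst3, the gene beyond Lrrc52, averaged 5.35 ± 1.38 CPM in ZsGreen-positive ILC2 and 4.79 ± 1.28 CPM in ZsGreen-negative ILC2, with overlapping groups. On the other side of Rxrg, Lmx1a had 0 counts in all libraries. Whether counting used the strand is not given in the sources used here.

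**Figure D5:**
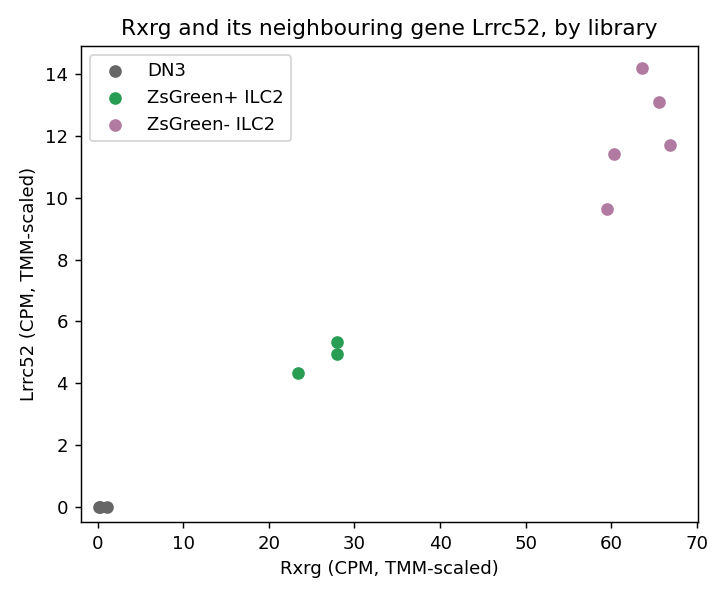
Level of Lrrc52 against that of Rxrg in each of the 11 libraries, both in CPM on linear axes. DN3 libraries sit near the origin, the 3 ZsGreen-positive libraries near 23.4 to 28.0 CPM of Rxrg and the 5 ZsGreen-negative libraries at 59.5 to 66.8 CPM, with Lrrc52 higher in each step.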

How the data were processed

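Per the labels, a PicoPure kit gave the RNA and a Watchmaker kit for mRNA the libraries. The authors deposited raw counts per gene, in a table of the 8 lung libraries and a table of all 11, and the lung columns were identical in both (0 differed). The submitters' processing notes name GRCm39 and DESeq2. Aligner, counter, annotation and strand setting: not given in the sources used here.

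Counts were tested with edgeR 4.0.16 in R 4.3.3: a quasi-likelihood F test with robust dispersions after TMM scaling, a filterByExpr filter (minimum count 10), Benjamini-Hochberg adjustment over all genes tested and a threshold of 0.05. The lung fit used 8 libraries with batch as a term. DN3 were compared in a fit of all 11 libraries without batch. Intervals at 95% come from the same fits. CPM are TMM-scaled, and CPM per kb use exon lengths of GENCODE M21 (GRCm38), another build than the counts, where no exon of a member overlaps another gene. A floor of 3 counts over a group served for folds against 0, and it covers counting error only. Alternatives were DESeq2 1.42.0, limma 3.58.1 voom, other scalings, no filter, other terms and leaving out each library. On simulated counts the lung fit recovered 86.3% of genes changed 2-fold and 99.0% of those changed 4-fold among 13705 genes. The simulation gave every gene the same dispersion and no batch effect, so it does not measure the power in these data.

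The members and gene lists were chosen with earlier results of these data known. From each pathway list, up to 4 tested genes of smallest p per comparison could be named, and the 8 genes most correlated with Rxrg were named in each set of libraries. No 2 replicates agreed within sampling noise. Some genes that these rules would name are not reported here.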

Additional observations from a re-analysis of the deposited data

How the results depend on the processing

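Rxrg differed between ZsGreen-positive and ZsGreen-negative ILC2 by −1.34 to −1.20 on the log2 scale over 19 alternatives, and 0 of the other 8 members were called under any of them. Their differences lay so near 0 that signs turned, without a call. Rxrb was at 0.10 with the replicate block, 0.024 without the batch term and 0.022 in the fit of all 11 libraries. With the structural and the macrophage score as a term, Rxrb was at 0.066 and 0.015, Rarg at 0.050 and 0.0063, Pparg at −0.12 and −0.068 and Nr1h2 at −0.054 and −0.0015. In the 2024 batch alone Vdr was at 0.069 and Nr1h2 at −0.049. Leaving out 1 library gave −0.13 to 0.039 for Rxrb, −0.053 to 0.10 for Pparg, −0.17 to 0.076 for Vdr and −0.048 to 0.074 for Nr1h2. Over all genes, 323 were higher and 300 lower in ZsGreen-positive ILC2. These counts were 621 and 460 without the filter, 145 and 153 in the 2024 batch alone, and 16 and 36 with the structural score. With the macrophage score 207 were higher. Leaving out 1 library gave 146 to 471 higher and 140 to 343 lower, with both counts moved by over 1.5 times without library 5 of the ZsGreen-negative group (146 and 140) and without library 2 (149 and 172) or 3 (148 and 154) of the ZsGreen-positive group. The cause of these shifts was not tested. Same-numbered libraries were not more alike than others: same-numbered pairs correlated at −0.19 to 0.12 (9 pairs) and other pairs at −0.16 to 0.28 (30 pairs). The highest values joined ZsGreen-negative libraries 3, 5 and 2 with ZsGreen-positive libraries 2, 3 and 1 (0.28, 0.26 and 0.21). A pairing other than by number was not tested. The replicate block gave 130 higher and 103 lower. It had no batch term and joined ZsGreen-positive library 3 of the 2025 batch with ZsGreen-negative library 3 of the 2024 batch. Under the block, Ccr9 (edgeR adjusted p = 0.946), S100g (0.282) and Pltp (0.0631) passed no longer. In DN3, 8 members were lower than each lung group under all 18 alternatives. The count of higher members against ZsGreen-positive ILC2 was 0. It was 1 with upper-quartile scaling and 0 to 1 when 1 library was left out, the 1 being without library 3 of the ZsGreen-positive group. Against ZsGreen-negative ILC2 it was 1, and 0 to 1 when 1 library was left out, with 0 without any 1 of DN3 libraries 1 to 3 or ZsGreen-negative libraries 1 to 3. Depth limits Rxrg and Rarg in DN3, with 12 and 6 counts.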
